A study of Mus musculus with 9 samples.

Results

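The genes described here encode protein kinases, lipid kinases, phosphatases and the subunits that steer them. They were chosen by symbol alone, as every gene of the deposited table whose symbol begins with a stem of these families, such as Mapk, Camk, Prk, Dusp, Ptpn, Ptpr, Ppp or Ppm1. There were 64 of them among the 2462 genes of the table. By textbook role, assigned after the values were seen and used for counts only, 31 are kinases, 18 are phosphatases, 12 are subunits or binding partners, and 3 have no known enzyme activity. The symbol rule therefore brings in proteins such as Prkcdbp, now named Cavin3, which coats caveolae and is not an enzyme.

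Their messenger RNA was measured in the caput epididymis, where sperm begin to mature after leaving the testis; every mouse was 14 weeks old. EDL mice had the wild-type genotype, and their efferent ducts, the tubules that carry fluid and sperm from the testis into the caput, had been tied off. W/Wv mice received no treatment and carried mutant alleles of the receptor gene Kit in every cell, which leave the testis almost without germ cells and the body almost without mast cells. WT mice were of the wild-type genotype and received no treatment. Each group had 3 libraries. The labels name no sham operation and no time since ligation, so the operation itself cannot be told apart from the closed duct. They also do not say that libraries come from separate animals, so p-values speak for the spread among libraries only, which may be technical.

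The table held 3536249 to 4793219 recovered reads per library, and the median worth of a single read lay between 0.0161 and 0.0222 FPKM (fragments per kilobase of transcript, scaled to the size of the library). Markers of principal cells, the main epithelial cell of the caput, were abundant in every library, with 7 of 11 listed genes in the table and a summed level of 37000 to 39300 FPKM in EDL, 32400 to 34400 FPKM in W/Wv and 43800 to 50300 FPKM in WT. The sum hides opposite changes. By the test used below, Lcn5 and Defb15 were higher than in WT, and Lcn8, Crisp1 and Crisp4 lower, in both altered groups. Gpx5 was lower in W/Wv alone, and Krt8 passed in neither. Markers of the initial segment, the first stretch of the caput, were far lower in both altered groups, with 5 of 9 in the table and sums of 191 to 228 FPKM in EDL, 25.9 to 28.1 FPKM in W/Wv and 8580 to 10800 FPKM in WT. Sperm and germ cell markers, with 10 of 12 in the table, summed to 14.6 to 15.9 FPKM in EDL, 14.0 to 15.8 FPKM in W/Wv and 141 to 147 FPKM in WT, and Tnp2, Smcp, Akap4 and Pgk2 were at 0 reads in all EDL and W/Wv libraries. In each altered group 5 of the 10 genes were at 0 reads. What remains of the sum comes from the others and is not read as a share of sperm left. The 3 mast cell markers in the table had 42 reads in EDL, 0 in W/Wv and 32 in WT. The nerve list had 1 gene in the table, Uchl1, at 5.53 to 5.61 FPKM in EDL, 6.79 to 7.24 FPKM in W/Wv and 42.7 to 48.1 FPKM in WT, and the adipocyte list had Plin4, at 12.4 to 14.0 FPKM in EDL, 10.8 to 13.3 FPKM in W/Wv and 5.65 to 6.91 FPKM in WT. The summed level of 2 erythroid markers overlapped between EDL and WT, at 8.35 to 80.4 FPKM in EDL, 19.2 to 34.0 FPKM in W/Wv and 59.8 to 99.2 FPKM in WT. The part of these cells in the results below was not tested. The lists for basal cells, clear cells, smooth muscle, leukocytes, endothelium and fibroblasts had 0 genes in the table and were not analysed here.

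Kinases attach phosphate to proteins or lipids and phosphatases remove it, so the balance of both sets how strongly a signal is passed on. In the mouse initial segment, secreted factors from the testis act on the receptor ROS1 and keep the extracellular signal-regulated kinase (ERK) branch of the mitogen-activated protein (MAP) kinase cascade active, and MAP kinase phosphatases hold it back. Cyclic AMP, which acts through protein kinase A, and calcium, which acts through calmodulin and its kinases, are the other main signals of this epithelium.

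Ligation keeps the fluid and sperm of the testis out of the lumen of the caput, while products of the testis that travel in the blood can still reach it, and EDL was set against WT to show which of these genes respond. In EDL, 20 of the 58 genes tested were higher than in WT, 28 were lower and 10 did not pass (limma on log2(FPKM + 1), Benjamini-Hochberg adjusted p under 0.05 over all 2013 genes tested). The shares called, 34.5% higher and 48.3% lower, stand against 39.4% and 35.9% of all genes tested in the table, 75.3% in either direction, so the table itself is rich in genes that changed. The median change of the 58 genes was -0.13 on the log2(FPKM + 1) scale, against 0.05 for all genes tested. With a change of at least 1 on that scale, 3 genes were higher and 8 lower, against 7.1% and 11.2% of all genes tested. The 1 FPKM added before the logarithm shrinks changes of low genes. Map3k15 (3.07-fold), Ppm1e (2.75-fold), Pik3c2g (2.44-fold) and Dusp2 (2.05-fold) rose in mean FPKM without reaching that change. The largest fall that missed it was 1.97-fold, in Mapk10. The libraries of EDL and WT did not overlap for 49 genes, where 77.4% of all genes tested did not overlap. In whole tissue, fewer cells of a type and less RNA per cell cannot be told apart.

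In W/Wv mice, mutant for Kit in every cell, the duct is open but carries almost no germ cells. Genotype and germ cell loss cannot be told apart in this group. Against WT, this group had 18 of the 58 genes higher, 29 lower and 11 that did not pass, which is 31.0% and 50%, against 35.3% and 35.0% of all genes tested, 70.3% in either direction. The median change was -0.16, against 0.02 for all genes tested. With a change of at least 1 on the log2(FPKM + 1) scale, Wnk4 was the only gene higher and 8 genes were lower, against 6.56% and 10.3% of all genes tested. Map3k15 (2.82-fold), Ppm1e (2.65-fold), Ptprm (2.22-fold), Camkk1 (2.12-fold) and Dusp2 (2.09-fold) rose in mean FPKM without reaching that change. Inpp1 fell 2.22-fold without reaching it. The libraries did not overlap for 47 genes, against 71.9% of all genes tested. Both comparisons share the WT libraries, so their values are given side by side and their likeness is not read as a result.

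**Figure D1:**
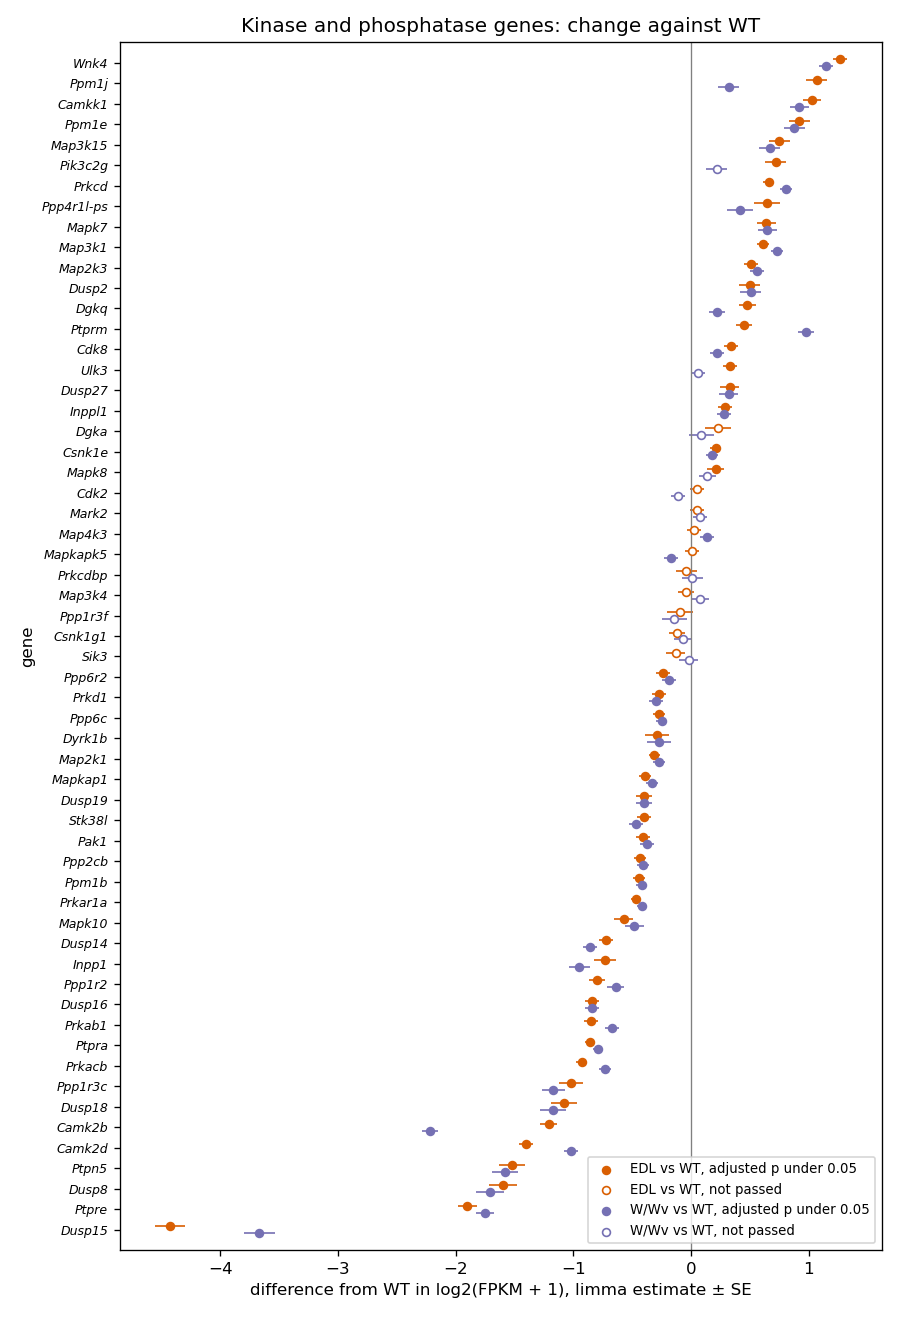
Change against WT on the log2(FPKM + 1) scale (x axis, limma estimate with SE) for the 58 genes tested (y axis, ordered by the change in EDL). Orange points are EDL against WT, purple points W/Wv against WT, and open points did not pass an adjusted p of 0.05; Dusp15 lies lowest in both, at -4.43 and -3.67, and Wnk4 highest, at 1.27 and 1.15.

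Split by role, of the 18 phosphatases, all tested, 13 were lower (72.2%) and 5 higher in EDL, and 13 lower and 5 higher in W/Wv, with medians of -0.58 and -0.61. Of all genes tested, 35.9% were lower and 39.4% higher in EDL, and 35.0% lower and 35.3% higher in W/Wv. The 30 kinases tested were spread over both directions, with 13 higher, 9 lower and 8 not passed in EDL, and 11 higher, 10 lower and 9 not passed in W/Wv, with medians of 0.05 and 0.08. Of the 8 subunits and partners tested, 0 were higher and 6 lower in each comparison. The roles were assigned with the values in view, and a difference between roles was not tested.

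**Figure D2:**
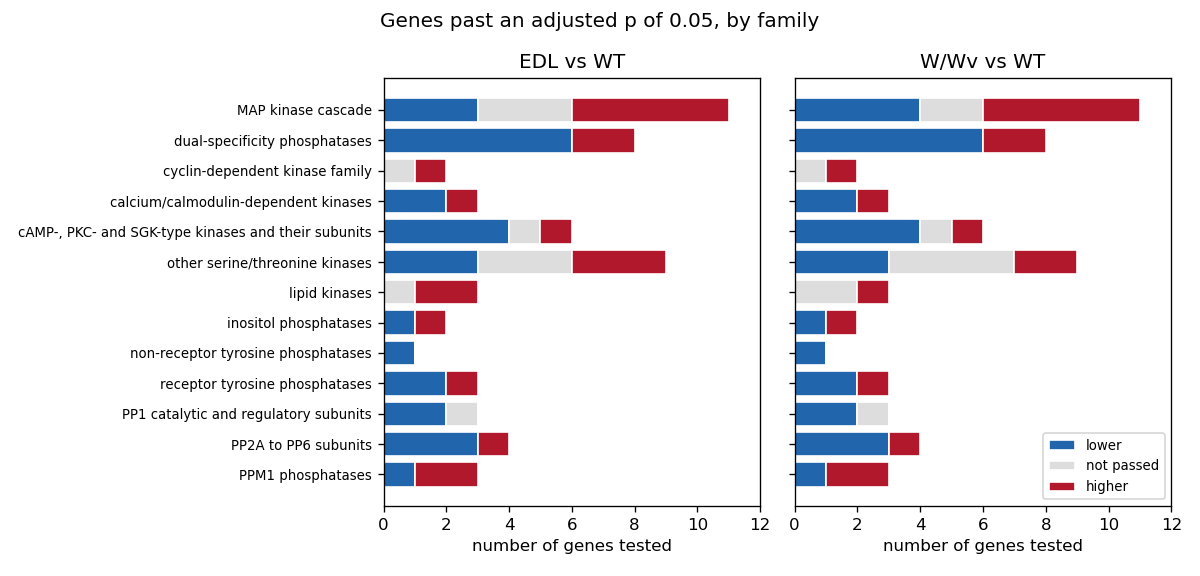
Number of genes tested (x axis) in each of 13 families (y axis), in EDL against WT on the left and W/Wv against WT on the right. Blue, grey and red stand for lower, not passed and higher; the 8 dual-specificity phosphatase genes show 6 lower and 2 higher in both panels, and the 11 genes of the MAP kinase cascade show 5 higher in both.

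Promoters were read for 57 of the 64 genes from RefSeq (GRCm38.p6, the build that mm10 names), as 250 bases before to 50 bases after each start site. Of 5 motifs searched on both strands, the full cyclic AMP response element TGACGTCA was found among the lower genes alone and is therefore shown. It was present in 5 of 57 promoters (8.77%), against 549 of 27025 RefSeq genes (2.03%) and 53 of 1966 genes of the table (2.7%). All 5 genes, Dusp8, Pak1, Mapk10, Stk38l and Prkar1a, were among the 25 genes lower in EDL than in WT that have a promoter here (20%), and 0 of the 18 higher genes held it. Among all genes of the table lower in EDL, 20 of 572 promoters held it (3.5%), and among all those higher in EDL 13 of 648 (2.01%). The motif was picked out after the values were seen, so these shares are a description and carry no test. Capitals mark the element in the stretches upstream of the start, each read 5′ to 3′ on the strand of the gene.
Dusp8 (chr7:142095325-142095414, minus strand): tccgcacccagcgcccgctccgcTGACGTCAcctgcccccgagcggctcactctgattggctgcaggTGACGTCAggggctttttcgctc
Pak1 (chr7:97788296-97788375, plus strand): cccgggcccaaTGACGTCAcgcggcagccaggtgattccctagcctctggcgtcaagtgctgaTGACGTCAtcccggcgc
Mapk10 (chr5:103211335-103211394, minus strand): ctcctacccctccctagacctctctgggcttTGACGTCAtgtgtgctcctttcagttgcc
Stk38l (chr6:146724840-146724899, plus strand): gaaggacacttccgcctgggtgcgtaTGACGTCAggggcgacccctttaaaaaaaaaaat
Prkar1a (chr11:109650889-109650918, plus strand): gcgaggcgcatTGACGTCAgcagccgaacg

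Dusp8 and Pak1 each carry 2 copies, which start at positions -107 and -63 in Dusp8 and at -234 and -182 in Pak1, counted from the start site. The first copy in Pak1 shares its first base with the last base of a CCAAT box. The single copies start at -29 in Mapk10, at -64 in Stk38l and at -49 from 1 of the RefSeq starts of Prkar1a. Of the other motifs, 3 were less frequent in these promoters than in the table: CCGGAAG, bound by ETS factors, in 12.3% against 14.5%, TGANTCA, bound by AP-1, in 3.51% against 6.56%, and the CCAAT box in 31.6% against 41.6%. The androgen receptor half-site AGAACA was more frequent, in 19.3%, against 15.1% of the table and 21.3% of all RefSeq genes. A match says only that these letters are in the window.

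In the MAP kinase cascade, in which each kinase activates the next, 5 of 11 genes were higher, 3 lower and 3 not passed in EDL, and 5 were higher, 4 lower and 2 not passed in W/Wv. The shares called, 72.7% in EDL and 81.8% in W/Wv, stand against 75.3% and 70.3% of all genes tested. In EDL the higher genes were Map2k3, Map3k1, Map3k15, Mapk7 and Mapk8, and the lower ones Map2k1, Mapk10 and Mapkap1. Map3k1, a kinase at the top of the cascade that feeds the Jun kinase branch (chr13:111746428-111818269), had 17.9, 18.8 and 17.8 FPKM in EDL, 20, 19.5 and 19.7 FPKM in W/Wv, and 11.1, 12.2 and 11.4 FPKM in WT. Every EDL and W/Wv library lay above every WT library. The changes were 0.61 in EDL (SE 0.05, adjusted p = 5.6e-07) and 0.73 in W/Wv (SE 0.05, adjusted p = 1.4e-07), or 1.57-fold and 1.71-fold in mean FPKM. Map2k3, the MAP kinase kinase that activates p38, averaged 26.7 ± 1.24 FPKM in EDL, 27.8 ± 0.465 FPKM in W/Wv and 18.5 ± 1.18 FPKM in WT (SD, n = 3 each), with changes of 0.51 and 0.56. Mapk7, which encodes ERK5 and is counted over exons that share 2.03% of their bases with Mfap4 on the other strand, averaged 7.88 ± 0.868 FPKM in EDL, 7.91 ± 0.571 FPKM in W/Wv and 4.69 ± 0.288 FPKM in WT, with changes of 0.64 and 0.65. No library of these genes crossed between an altered group and WT.

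Map2k1, which encodes MEK1, the kinase that activates ERK1 and ERK2, moved the other way. It had 24.2, 23.1 and 23.2 FPKM in EDL, 24.6, 23.9 and 24.3 FPKM in W/Wv, and 30.6, 29.2 and 28.3 FPKM in WT. The groups did not overlap, yet the fall was small, at -0.31 in EDL (SE 0.05, adjusted p = 8.3e-05) and -0.27 in W/Wv (SE 0.05, adjusted p = 0.00032), so EDL kept a ratio of 0.799 of WT and W/Wv one of 0.826. The Jun kinase genes differed from each other. Mapk10, the Jun kinase known from neurons, fell to 1.03 ± 0.0241 FPKM in EDL and 1.16 ± 0.0397 FPKM in W/Wv, against 2.02 ± 0.226 FPKM in WT, with changes of -0.57 and -0.48. Mapk8, the widely expressed form, averaged 6.41 ± 0.231 FPKM in EDL, 6.07 ± 0.377 FPKM in W/Wv and 5.41 ± 0.536 FPKM in WT. Its rise passed in EDL alone (0.21, adjusted p = 0.023; W/Wv 0.14, adjusted p = 0.11), and W/Wv set against EDL did not pass (adjusted p = 0.6). The call in EDL was lost under median-ratio scaling, at 0.18, without EDL replicate 3, at 0.19, and without WT replicate 1 or 2, at 0.18 each. In W/Wv Mapk8 passed without WT replicate 3, its highest WT library, at 0.21 (adjusted p = 0.02).

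Mapkap1, a subunit of the mTOR complex 2 that also binds stress-activated kinases, fell by 0.39 in EDL and by 0.33 in W/Wv on the log2(FPKM + 1) scale. Map3k15, a stress-activated MAP kinase kinase kinase, was higher in both, at 1.49 ± 0.0705 FPKM in EDL, 1.37 ± 0.229 FPKM in W/Wv and 0.486 ± 0.0192 FPKM in WT, or 3.07-fold and 2.82-fold, with 13.9% of its exon bases shared with Pdha1 on the other strand. Mapkapk5 passed in W/Wv alone, at -0.17 (adjusted p = 0.016), and not in EDL (0.01, adjusted p = 0.94). Of its exon bases, 56.5% are shared with Adam1a on the same strand, and reads within that part cannot be told from those of that gene. Map4k3 passed in W/Wv alone as well, at 0.14 (adjusted p = 0.041; EDL 0.03, adjusted p = 0.61). Neither differed between W/Wv and EDL beyond the threshold, with adjusted p = 0.057 for Mapkapk5 and 0.23 for Map4k3. Both calls were fragile: that of Mapkapk5 was lost without W/Wv replicate 2, at -0.14, or WT replicate 2, at -0.15, and that of Map4k3 with edgeR and with DESeq2, at 0.13 each, in a fit of only these groups, at 0.14, with plain empirical Bayes moderation, at 0.14, and without EDL replicate 3, at 0.14, W/Wv replicate 2, at 0.1, or WT replicate 1 or 3, at 0.13 each.

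The dual-specificity phosphatases (DUSPs) remove phosphate from serine, threonine and tyrosine, and several of them switch MAP kinases off. All 8 genes in the table passed in both comparisons, 6 lower and 2 higher in EDL and 6 lower and 2 higher in W/Wv, with medians of -0.78 and -0.85. Of all genes tested, 75.3% passed in EDL and 70.3% in W/Wv. Dusp15, a small lipid-anchored phosphatase that in human was first described in testis (chr2:152940995-152952400), had the largest fall of all 58 genes. It had 0.256, 0.106 and 0.193 FPKM in EDL, 0.737, 1.23 and 1.11 FPKM in W/Wv, and 28.6, 25.5 and 20.2 FPKM in WT. The 3 groups were fully apart, with EDL lowest. Against WT the mean was 134-fold lower in EDL, a change of -4.43 (SE 0.13, adjusted p = 1.1e-10), and 24.2-fold lower in W/Wv, a change of -3.67 (SE 0.13, adjusted p = 5.1e-10). The size depends on the unit: on recovered reads, of which there were 34 in EDL, 75 in W/Wv and 3163 in WT, edgeR put Dusp15 103-fold lower in EDL and 39.7-fold lower in W/Wv. The initial segment and sperm marker sums given above fell in the same libraries, and their part in this fall was not tested.

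Dusp8, a phosphatase of Jun kinase and p38 and a carrier of 2 of the elements printed above (chr7:142079487-142095907), had 1.14, 0.784 and 1.38 FPKM in EDL, 1.1, 0.83 and 0.882 FPKM in W/Wv, and 5.95, 5.35 and 4.77 FPKM in WT. All altered libraries lay far below WT and mixed with each other. The mean was 4.87-fold lower in EDL (-1.6, SE 0.12, adjusted p = 1.8e-07) and 5.71-fold lower in W/Wv (-1.71, SE 0.12, adjusted p = 1.1e-07). Dusp16, which acts on the same kinases, averaged 6.28 ± 0.243 FPKM in EDL, 6.26 ± 0.144 FPKM in W/Wv and 12 ± 0.797 FPKM in WT, with a change of -0.84 in both. Among the small DUSPs without a MAP kinase binding domain, Dusp18 averaged 2.61 ± 0.21 FPKM in EDL, 2.41 ± 0.512 FPKM in W/Wv and 6.64 ± 0.535 FPKM in WT, with changes of -1.08 and -1.17. Dusp14 averaged 5.23 ± 0.319 FPKM in EDL, 4.66 ± 0.0499 FPKM in W/Wv and 9.29 ± 0.135 FPKM in WT, with changes of -0.72 and -0.86. Each of these genes lay below WT in every EDL and W/Wv library. Dusp19, a small DUSP as well, fell by 0.4 in both, and 4.38% of its exon bases are shared with Nup35 on the same strand.

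The 2 DUSP genes that rose were low in every library. Dusp2, a nuclear phosphatase of ERK and other MAP kinases, had 1.34, 1.39 and 1.22 FPKM in EDL, 1.49, 1.17 and 1.36 FPKM in W/Wv, and 0.506, 0.762 and 0.658 FPKM in WT. Dusp27, an inactive relative, averaged 1.16 ± 0.112 FPKM in EDL, 1.15 ± 0.0321 FPKM in W/Wv and 0.718 ± 0.0651 FPKM in WT. Their ranges did not touch those of WT, with changes of 0.5 and 0.51 for Dusp2 and of 0.33 and 0.32 for Dusp27. Dusp4, Dusp5 and Dusp6, known as ERK-induced phosphatases, were not analysed here.

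**Figure D3:**
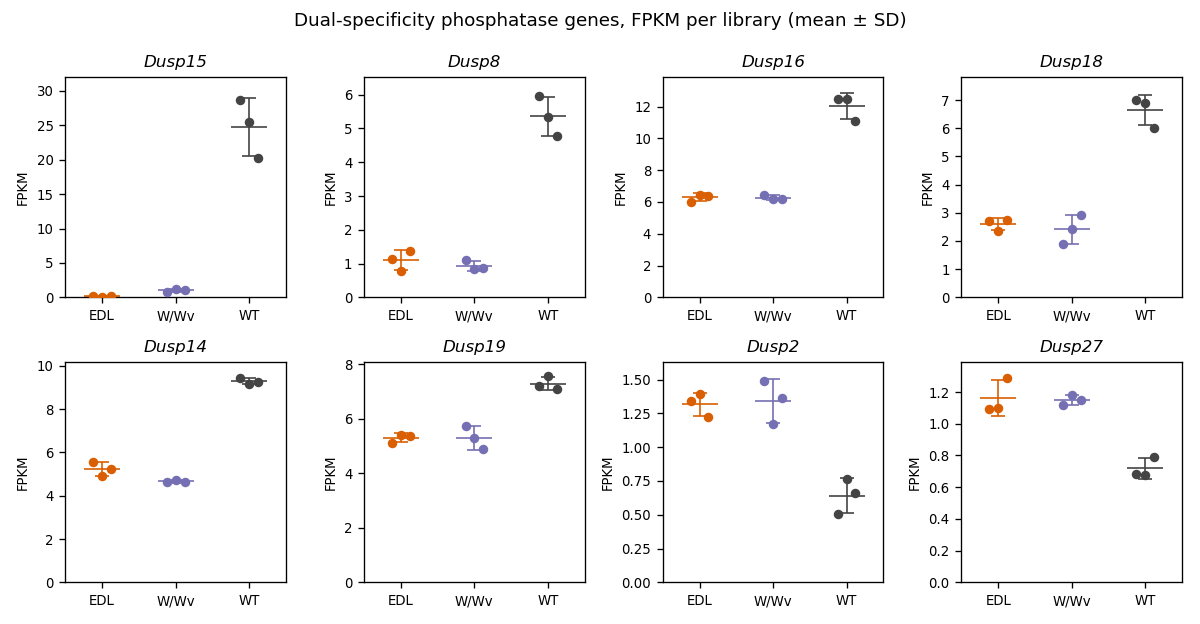
FPKM in each library (points) with the group mean and SD (bars) for the 8 dual-specificity phosphatase genes, in EDL, W/Wv and WT from left to right. Dusp15 is at 1.23 or less in all EDL and W/Wv libraries and between 20.2 and 28.6 in WT, and Dusp2 and Dusp27 alone lie higher in EDL and W/Wv than in WT.

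The 4 tyrosine phosphatase genes all passed, 3 lower and Ptprm higher, in each comparison, where 75.3% of all genes tested passed in EDL and 70.3% in W/Wv. Ptpn5, known from brain as the phosphatase that acts on ERK and on Src-family targets (chr7:47077795-47134026), was the most abundant of them. It had 26.9, 28.1 and 26.4 FPKM in EDL, 27.4, 24.5 and 26.3 FPKM in W/Wv, and 94.2, 82.5 and 64.7 FPKM in WT. WT spread widely, and its lowest library was still above every EDL and W/Wv library. Uchl1, the only gene of the nerve list in the table, was lower in the same libraries, and 1 gene cannot show the amount of nerve. A part of nerve in the falls of Ptpn5, Mapk10 and Camkv was not tested. For Ptpn5 the mean was 2.97-fold lower in EDL (-1.52, SE 0.11, adjusted p = 4.2e-07) and 3.09-fold lower in W/Wv (-1.58, SE 0.11, adjusted p = 3.2e-07). Ptpre, a receptor-type phosphatase whose short form is cytoplasmic (chr7:135537824-135686294), had 2.94, 3.46 and 3.28 FPKM in EDL, 3.6, 3.42 and 4.05 FPKM in W/Wv, and 16.4, 14.5 and 13.6 FPKM in WT. That is 4.6-fold lower in EDL (-1.9, SE 0.08, adjusted p = 3.9e-09) and 4.01-fold lower in W/Wv (-1.75, SE 0.08, adjusted p = 6.9e-09). Ptpra, its close relative and an activator of Src-family kinases, averaged 22.1 ± 0.0654 FPKM in EDL, 23.2 ± 0.667 FPKM in W/Wv and 40.8 ± 0.792 FPKM in WT, with changes of -0.86 and -0.79.

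Ptprm, a receptor phosphatase that sits at cell contacts and binds its like on the next cell (chr17:66666848-67354491), had 5.92, 5.33 and 6.0 FPKM in EDL, 8.41, 8.79 and 9.11 FPKM in W/Wv, and 3.77, 4.19 and 3.9 FPKM in WT. The order of the groups was W/Wv, then EDL, then WT, with no library out of place. Its rise was 1.45-fold in EDL (0.45, SE 0.07, adjusted p = 8.7e-05) and 2.22-fold in W/Wv (0.98, SE 0.07, adjusted p = 1.2e-07). Of the exon bases of Ptprm, 5.18% are shared with the pseudogene AC139750.1 on the same strand.

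Among the calcium and calmodulin-dependent kinases, the chains of calcium/calmodulin kinase II that are in the table, Camk2b and Camk2d, fell, and Camkk1, which acts upstream of other calmodulin kinases, rose, in EDL as in W/Wv. Camk2d, the chain found in most tissues (chr3:126595487-126846326), had 10.7, 11.9 and 11.6 FPKM in EDL, 14.4, 15.9 and 15 FPKM in W/Wv, and 31.5, 30.0 and 33.6 FPKM in WT, which was 2.78-fold lower in EDL (-1.4, SE 0.06, adjusted p = 3.2e-09) and 2.1-fold lower in W/Wv (-1.02, SE 0.06, adjusted p = 3.9e-08). Camk2b, the chain that binds actin (chr11:5969629-6066357), had 24.3, 22.6 and 23.8 FPKM in EDL, 10.6, 10.9 and 12 FPKM in W/Wv, and 61.5, 52.9 and 53.2 FPKM in WT, which was 2.37-fold lower in EDL (-1.21, SE 0.07, adjusted p = 2.2e-08) and 4.99-fold lower in W/Wv (-2.22, SE 0.07, adjusted p = 1.7e-10). Thus EDL was the lowest group for Camk2d and W/Wv the lowest for Camk2b. Camkk1, the activator of calmodulin kinases I and IV (chr11:73016043-73042073), rose 2.31-fold in EDL, to 8.38 ± 0.0627 FPKM, and 2.12-fold in W/Wv, to 7.69 ± 0.348 FPKM, against 3.63 ± 0.574 FPKM in WT (changes of 1.03 and 0.92, adjusted p = 5.2e-07 and 1.4e-06).

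Among the cyclic AMP, AMP and protein kinase C genes, 4 of 6 tested fell, 1 rose and 1 did not pass, in each comparison. The share that passed, 83.3% in each, stands against 75.3% of all genes tested in EDL and 70.3% in W/Wv. The share that fell, 66.7% in each, stands against 35.9% and 35.0%. Prkacb, a catalytic subunit of protein kinase A (chr3:146729579-146812946), had 37.1, 40.6 and 40.4 FPKM in EDL, 46.0, 47.0 and 42.9 FPKM in W/Wv, and 75.3, 74.9 and 77.0 FPKM in WT. No altered library came near WT, and the mean was 1.92-fold lower in EDL (-0.93, SE 0.05, adjusted p = 2.1e-08) and 1.67-fold lower in W/Wv (-0.73, SE 0.05, adjusted p = 1.6e-07). Prkar1a, the regulatory subunit that holds the same enzyme inactive without cyclic AMP, had the highest level of the 58 genes. It averaged 66.6 ± 0.535 FPKM in EDL, 68.9 ± 0.0761 FPKM in W/Wv and 92.8 ± 3.48 FPKM in WT, a smaller fall of 0.47 in EDL and 0.42 in W/Wv; quantile normalization took the W/Wv fall below the threshold, at -0.11. Prkab1, a scaffold subunit of the AMP-activated kinase, averaged 24.8 ± 0.21 FPKM in EDL, 28.2 ± 0.435 FPKM in W/Wv and 45.5 ± 4.02 FPKM in WT, with changes of -0.85 and -0.67.

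Prkd1, which encodes protein kinase D1, fell slightly, by 0.27 in EDL and 0.3 in W/Wv. Prkcd, the delta form of protein kinase C, which responds to diacylglycerol (chr14:30595353-30626414), was the gene of this family that rose. It had 55.0, 54.7 and 52.8 FPKM in EDL, 59.5, 57.9 and 63.1 FPKM in W/Wv, and 32.7, 33.8 and 35.4 FPKM in WT. The increase was 1.6-fold in EDL (0.66, SE 0.05, adjusted p = 2.5e-07) and 1.77-fold in W/Wv (0.81, SE 0.05, adjusted p = 4.8e-08).

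Of the 9 other serine/threonine kinases tested, 3 were higher, 3 lower and 3 not passed in EDL, and 2 were higher, 3 lower and 4 not passed in W/Wv. That is 66.7% called in EDL and 55.6% in W/Wv, against 75.3% and 70.3% of all genes tested. Wnk4, a kinase known from the kidney for its control of sodium, chloride and potassium transport (chr11:101260537-101277409), had 9.0, 8.42 and 8.84 FPKM in EDL, 8.08, 7.79 and 8.13 FPKM in W/Wv, and 2.88, 3.24 and 3.04 FPKM in WT. On the log2(FPKM + 1) scale this was the highest rise of the 58 genes in both comparisons, with 2.87-fold in EDL (1.27, SE 0.06, adjusted p = 7e-09) and 2.62-fold in W/Wv (1.15, SE 0.06, adjusted p = 1.5e-08). An antisense gene, Gm11615, covers 7.38% of its exon bases, and no source used here says whether counting used the strand. Ulk3, a kinase of the autophagy-kinase family that also acts in Hedgehog signalling, rose by 0.33 in EDL (adjusted p = 0.00022), to 13.9 ± 0.352 FPKM, and was 11.4 ± 0.725 FPKM in W/Wv (0.06, adjusted p = 0.33), against 10.9 ± 0.201 FPKM in WT. Csnk1e, a casein kinase of the circadian clock, was 1.16-fold higher in EDL and 1.14-fold higher in W/Wv.

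The falls in that family were modest. Pak1, a kinase of actin dynamics downstream of Rac and Cdc42, averaged 5.04 ± 0.197 FPKM in EDL, 5.2 ± 0.191 FPKM in W/Wv and 7.0 ± 0.307 FPKM in WT. Stk38l, a relative of the Hippo pathway kinases, averaged 5.3 ± 0.307 FPKM in EDL, 5.02 ± 0.191 FPKM in W/Wv and 7.33 ± 0.102 FPKM in WT. Dyrk1b, a kinase that holds cells in a resting state, fell by 0.29 in EDL and 0.27 in W/Wv, with a WT library inside the W/Wv range. Its call in EDL was lost without EDL replicate 1, at -0.24, or WT replicate 2, at -0.22, and its call in W/Wv under quantile normalization, at -0.21, and without W/Wv replicate 2, at -0.18, WT replicate 1, at -0.26, or WT replicate 2, at -0.19. Of the cyclin-dependent kinases, Cdk8, a subunit of the Mediator complex of transcription, averaged 22.1 ± 1.03 FPKM in EDL, 20.2 ± 0.725 FPKM in W/Wv and 17.2 ± 1.13 FPKM in WT and passed in both. Cdk2, the kinase of DNA replication, did not pass, with 8.11 ± 0.217 FPKM in EDL, 7.17 ± 0.393 FPKM in W/Wv and 7.82 ± 0.514 FPKM in WT.

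Of the 3 lipid kinases, 2 were higher and 1 did not pass in EDL, and 1 was higher and 2 did not pass in W/Wv. Over all genes tested, 75.3% passed in EDL and 70.3% in W/Wv. Pik3c2g, a class II phosphoinositide 3-kinase (chr6:139614072-139969284), had 2.37, 1.89 and 1.82 FPKM in EDL, 1.16, 1.02 and 1.22 FPKM in W/Wv, and 0.985, 0.78 and 0.732 FPKM in WT. The EDL libraries lay above all the others, a 2.44-fold rise (0.72, SE 0.09, adjusted p = 2.7e-05), while W/Wv did not pass against WT (0.22, SE 0.09, adjusted p = 0.054) although its libraries did not overlap with WT. That result passed with a pseudocount of 0.1, at 0.41, under quantile normalization, at 0.49, and with plain empirical Bayes moderation, at 0.22. It also passed without EDL replicate 1, at 0.22, or WT replicate 1, at 0.28. With edgeR and with DESeq2 it did not pass, at 0.36 each. Dgkq, which turns diacylglycerol into phosphatidic acid, averaged 6.35 ± 0.108 FPKM in EDL, 5.13 ± 0.537 FPKM in W/Wv and 4.25 ± 0.179 FPKM in WT, and shares 29.1% of its exon bases with Tmem175 on the other strand. Its call in W/Wv against WT (0.22, adjusted p = 0.018) was lost without W/Wv replicate 3, at 0.15, and without WT replicate 3, at 0.19. Dgka, a relative, did not pass in either (0.23, adjusted p = 0.071 in EDL; 0.09, adjusted p = 0.5 in W/Wv), and without WT replicate 1, its highest WT library, it passed at 0.37 in EDL and 0.23 in W/Wv.

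Of the inositol phosphatases, Inpp1, which recycles inositol phosphates, averaged 3.87 ± 0.112 FPKM in EDL, 3.2 ± 0.56 FPKM in W/Wv and 7.09 ± 0.387 FPKM in WT, with changes of -0.73 and -0.95. Inppl1, which encodes SHIP2 and removes a phosphate from the lipid product of class I phosphoinositide 3-kinases, was 1.24-fold higher in EDL and 1.23-fold higher in W/Wv, with 18.8% of its exon bases under the antisense gene Gm10602.

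Subunits of protein phosphatase 1, the enzyme that among other tasks controls glycogen, were lower or did not pass. Ppp1r2, which encodes inhibitor-2, had 20.7, 19.9 and 20.1 FPKM in EDL, 22.6, 24.0 and 21.6 FPKM in W/Wv, and 36.4, 31.8 and 40.2 FPKM in WT. Ppp1r3c, which brings the phosphatase to glycogen, had 1.92, 1.97 and 2.53 FPKM in EDL, 1.63, 1.95 and 1.88 FPKM in W/Wv, and 6.02, 5.35 and 4.66 FPKM in WT. All altered libraries were below WT for both, with changes of -0.8 and -0.64 for Ppp1r2 and of -1.02 and -1.17 for Ppp1r3c, and Ppp1r3c was 2.5-fold lower in EDL and 2.94-fold lower in W/Wv. Ppp1r3f, another glycogen-targeting subunit, did not pass, at -0.09 (adjusted p = 0.46) and -0.14 (adjusted p = 0.27), and 46.9% of its exon bases are shared with Gm36995 on the same strand.

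The catalytic subunit genes of protein phosphatases 2A and 6 that are in the table, Ppp2cb and Ppp6c, fell a little and evenly. Ppp2cb averaged 39.3 ± 0.677 FPKM in EDL, 39.9 ± 1.84 FPKM in W/Wv and 53.4 ± 2.14 FPKM in WT, with changes of -0.43 and -0.41. Ppp6c averaged 35.3 ± 1.3 FPKM in EDL, 35.9 ± 1.76 FPKM in W/Wv and 42.8 ± 2.26 FPKM in WT, and its regulatory partner Ppp6r2 fell by 0.24 and 0.19, a W/Wv call that was lost without W/Wv replicate 2 or WT replicate 2, at -0.16 each. Quantile normalization took the fall of Ppp6c below the threshold in both, at -0.09 and -0.07. The pseudogene Ppp4r1l-ps rose 1.85-fold in EDL and 1.5-fold in W/Wv.

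The magnesium-dependent PPM1 phosphatases split. Ppm1b, a phosphatase of stress-activated kinases and of the kinase upstream of NF-kappaB, averaged 29.8 ± 0.468 FPKM in EDL, 30.1 ± 1.32 FPKM in W/Wv and 40.7 ± 1.32 FPKM in WT, with changes of -0.44 and -0.42. Ppm1e, which acts on calmodulin kinases and on Pak kinases, had 2.54, 3.04 and 3.02 FPKM in EDL, 2.55, 2.88 and 2.83 FPKM in W/Wv, and 1.21, 0.826 and 1.09 FPKM in WT, a rise of 2.75-fold and 2.65-fold. Ppm1j, a less studied member of the family (chr3:104780952-104786023), had 5.48, 5.42 and 4.96 FPKM in EDL, 2.7, 2.53 and 2.99 FPKM in W/Wv, and 1.68, 2.02 and 2.3 FPKM in WT. The EDL libraries stood far above the rest, and W/Wv lay just above WT. The rise was 2.64-fold in EDL (1.07, SE 0.09, adjusted p = 6.8e-07) and 1.37-fold in W/Wv (0.32, SE 0.09, adjusted p = 0.0075).

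No comparison called 8 of the 58 genes: Sik3, Csnk1g1, Ppp1r3f, Map3k4, Prkcdbp, Mark2, Cdk2 and Dgka. The most abundant were Prkcdbp, at 35.6 ± 1.41 FPKM in EDL, 37.0 ± 3.76 FPKM in W/Wv and 36.9 ± 4.34 FPKM in WT, and the polarity kinase Mark2, at 21.3 ± 0.584 FPKM in EDL, 21.9 ± 1.06 FPKM in W/Wv and 20.6 ± 1.26 FPKM in WT. Map3k4, a p38 and Jun kinase activator, averaged 7.37 ± 0.511 FPKM in EDL, 8.16 ± 0.741 FPKM in W/Wv and 7.62 ± 0.348 FPKM in WT, and Sik3, a salt-inducible kinase, 8.23 ± 0.546 FPKM in EDL, 8.98 ± 0.617 FPKM in W/Wv and 9.1 ± 0.756 FPKM in WT. For Prkcdbp the changes were -0.04 (SE 0.09) and 0.01 (SE 0.09), so the data leave room for a small change either way. Of its exon bases, 22.5% are shared with Gm45667 on the other strand. Sik3 and Csnk1g1 passed in EDL with edgeR and with DESeq2, at -0.19 each, Csnk1g1 also under median-ratio scaling, at -0.15, and Mark2 under quantile normalization, at 0.15 in EDL and 0.18 in W/Wv.

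For 6 genes fewer than 3 libraries reached 1 FPKM, and these were not tested. Camkv, a calmodulin kinase relative without enzyme activity that is known from neurons, had 2 reads in the 3 EDL libraries, 8 in W/Wv and 178 in WT, or 0.0152, 0.0 and 0.0153 FPKM in EDL, 0.0, 0.0916 and 0.0553 FPKM in W/Wv, and 1.45, 1.01 and 0.659 FPKM in WT. Ppp3r2, the testis form of the calcineurin regulatory subunit, had 0 reads in EDL and in W/Wv and 21 in WT, which is at least 7.67-fold lower in EDL and at least 6.61-fold lower in W/Wv with a floor of 3 reads over the group, a bound that covers counting error only. These low counts ran alongside the fall of the sperm marker sum, whose part was not tested. Csnka2ip had 0 reads in EDL, 0 in W/Wv and 3 in WT, and Ppp1r3g, a glycogen-targeting subunit, had 4 in EDL, 1 in W/Wv and 8 in WT. Prkag3, a subunit of the AMP-activated kinase known from muscle, had 91 reads in EDL, 60 in W/Wv and 42 in WT, and Stk32a 52 in EDL, 33 in W/Wv and 28 in WT.

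Setting W/Wv directly against EDL compares Kit mutants, whose open duct carries almost no germ cells, with wild-type mice whose duct was tied off. Genotype, operation and mast cells differ along with the duct, and their parts cannot be told apart. Here 4 of the 58 genes were higher and 5 lower in W/Wv (6.9% and 8.62%), against 6.95% and 7.0% of all genes tested, 14.0% in either direction, and 49 did not pass. The libraries did not overlap for 24 genes, against 38.7% of all genes tested, and the median change was 0.0. With a change of at least 1 on the log2(FPKM + 1) scale, 0 of the 58 genes were higher in W/Wv, against 0.199% of all genes tested, and 1 was lower, Camk2b, against 0.397%. Dusp15, low in both groups, reached 0.77 on this scale, though it was 5.53-fold higher in mean FPKM and 2.58-fold higher with edgeR on recovered reads. Camk2b averaged 11.2 ± 0.729 FPKM in W/Wv and 23.6 ± 0.894 FPKM in EDL, 2.11-fold lower in W/Wv (-1.01, SE 0.07, adjusted p = 7.8e-06). Camk2d went the other way, at 15.1 ± 0.763 FPKM in W/Wv and 11.4 ± 0.601 FPKM in EDL, 1.32-fold higher in W/Wv (0.38, SE 0.06, adjusted p = 0.002). These chains of calcium/calmodulin kinase II stood in opposite order in the altered groups.

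Ppm1j averaged 2.74 ± 0.235 FPKM in W/Wv and 5.28 ± 0.287 FPKM in EDL, 1.93-fold lower in W/Wv (-0.75, adjusted p = 0.00034). Pik3c2g averaged 1.13 ± 0.0995 FPKM in W/Wv and 2.03 ± 0.299 FPKM in EDL, 1.79-fold lower in W/Wv (-0.5, adjusted p = 0.0051). In both, W/Wv lay nearer to WT than to EDL. Ulk3 was also lower in W/Wv than in EDL (-0.27, adjusted p = 0.0088), as was Dgkq (-0.26, adjusted p = 0.034), a call that was lost without EDL replicate 1, at -0.27, EDL replicate 2, at -0.25, EDL replicate 3, at -0.27, W/Wv replicate 1, at -0.22, or W/Wv replicate 2, at -0.24.

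Ptprm was 1.52-fold higher in W/Wv than in EDL (0.53, SE 0.07, adjusted p = 0.00046). Dusp15 was 5.53-fold higher in W/Wv, at 1.02 ± 0.255 FPKM, than in EDL, at 0.185 ± 0.0752 FPKM (0.77, SE 0.13, adjusted p = 0.0027), both far below WT. On recovered reads Dusp15 was 2.58-fold higher with edgeR (adjusted p = 0.023) and 2.6-fold higher with DESeq2 (adjusted p = 0.00049), which rested on 75 reads in W/Wv and 34 in EDL. Prkacb was 1.15-fold higher in W/Wv (0.2, adjusted p = 0.028), a call that was lost without EDL replicate 1, at 0.16, EDL replicate 3, at 0.22, W/Wv replicate 1, at 0.19, or W/Wv replicate 2, at 0.17, and with plain empirical Bayes moderation, at 0.2.

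**Figure D4:**
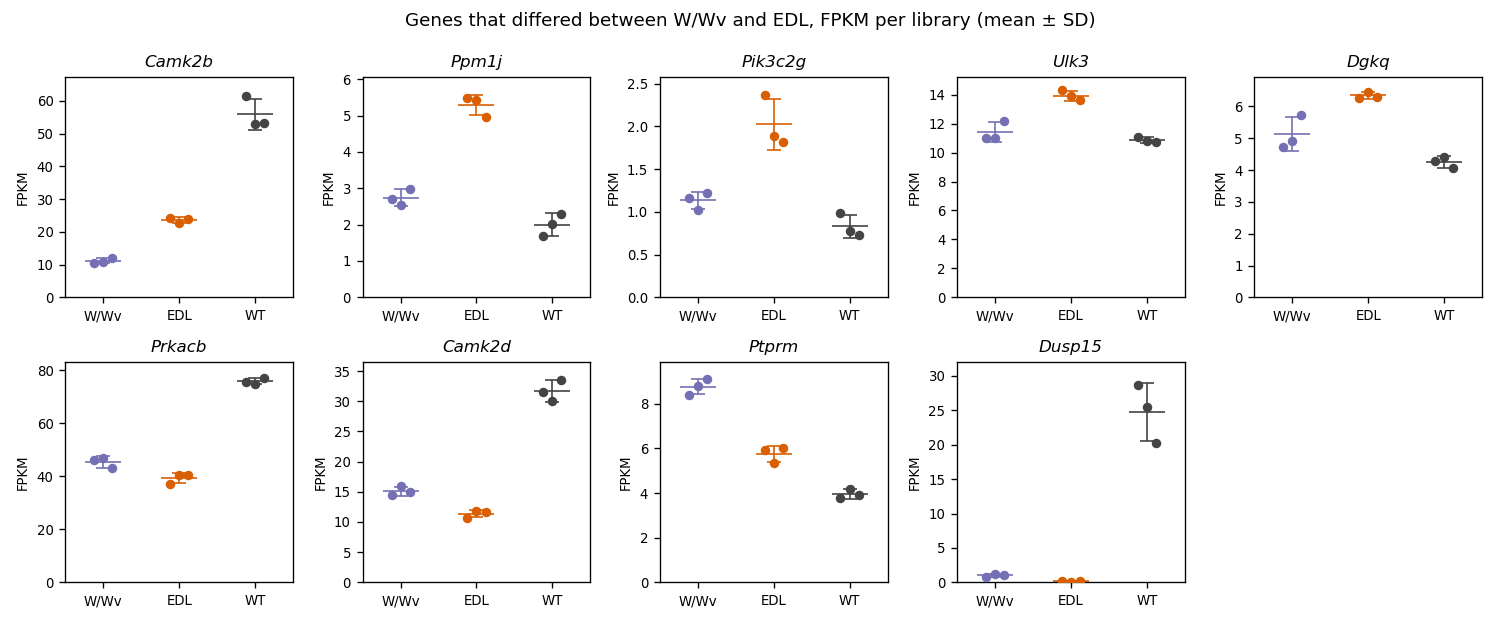
FPKM in each library (points) with the group mean and SD (bars) for the 9 genes that passed between W/Wv and EDL, in W/Wv, EDL and WT from left to right. Ppm1j and Pik3c2g are higher in EDL than in W/Wv and WT, Camk2b is lowest in W/Wv, and Ptprm is highest in W/Wv.

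The pathway genes around these kinases were read from 3 lists. Of 66 genes of the testis-to-epididymis and ERK pathway, 10 are in the table and 9 were tested, with 4 higher, 4 lower and 1 not passed in EDL, and 3 higher, 3 lower and 3 not passed in W/Wv. These shares called, 88.9% in EDL and 66.7% in W/Wv, stand against 75.3% and 70.3% of all genes tested. The p90 ribosomal S6 kinases, which ERK activates, differed by gene: Rps6ka2 fell to 2.33 ± 0.145 FPKM in EDL and 2.4 ± 0.233 FPKM in W/Wv, against 10.2 ± 1.17 FPKM in WT (-1.74 and -1.71), and Rps6ka1 rose by 0.31 and 0.35. Ptk2b, a calcium-activated tyrosine kinase that feeds into ERK, averaged 13.2 ± 0.564 FPKM in EDL, 15.4 ± 1.47 FPKM in W/Wv and 33.4 ± 2.74 FPKM in WT (-1.28 and -1.07). The adaptor Shc4 fell to 0.201 ± 0.0508 FPKM in EDL and 0.438 ± 0.0537 FPKM in W/Wv, against 45.7 ± 4.43 FPKM in WT. Its changes of -5.28 and -5.02 are shrunk by the 1 FPKM added before the logarithm. Fos, an early target of ERK, had 0.859 ± 0.117 FPKM in EDL, 5.18 ± 1.52 FPKM in W/Wv and 6.12 ± 2.98 FPKM in WT. It passed in EDL (-1.86, adjusted p = 0.00023) and not in W/Wv (-0.16, adjusted p = 0.64), with W/Wv set against EDL at 1.7 (adjusted p = 0.0045).

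Of 54 genes of cyclic AMP and calcium signalling, 13 are in the table and 10 were tested, with 4 higher, 3 lower and 3 not passed in EDL, and 5 higher, 3 lower and 2 not passed in W/Wv. Called were 70.0% in EDL and 80.0% in W/Wv, against 75.3% and 70.3% of all genes tested. Rcan1, an inhibitor of calcineurin that calcineurin itself induces, averaged 8.61 ± 0.214 FPKM in EDL, 8.41 ± 0.61 FPKM in W/Wv and 16.6 ± 1.77 FPKM in WT (-0.87 and -0.9). The phosphodiesterases, which break down cyclic AMP, did not move as 1: Pde3b fell by 0.86 in EDL and 0.52 in W/Wv, Pde4d fell by 0.57 and 0.6, and Pde7a rose by 0.55 and 0.39. Plcg2, a phospholipase that releases diacylglycerol and calcium, rose by 0.32 and 0.41. Of 33 genes of the PI3K, AKT and mTOR pathway, 0 are in the table, and they were not analysed here.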

How the data were processed

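Stranded poly-A libraries were made, per the labels' protocols. TopHat2 2.1.1, Cufflinks 2.2.1 and mm10 are named per the submitters' processing notes, without role or order. No source used here says how the 2462 genes were chosen, how FPKM was scaled or whether counting used the strand. Per the file headers, the authors deposited normalized FPKM and a signal, normalized counts, which the low values show to be reads divided by 1 factor per library. Whole reads were recovered from it (98.1% to 99.0% of values whole within 0.1 of a read).

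In the main test, limma 3.58.1 (R 4.3.3, trended and robust) was fitted to log2(FPKM + 1) over 9 libraries together. A gene entered with 1 FPKM in 3 libraries. Benjamini-Hochberg adjustment ran over 2013 genes, with a threshold of 0.05, and changes are understated for low genes. Replicates differed by more than sampling noise, and most in WT (chi-square per gene 3.22 to 7.55 in EDL, 5 to 6.84 in W/Wv, 14 to 26.2 in WT). The joint fit shares this spread among the groups. Between W/Wv and EDL it called 281 of all genes tested, and a fit of only these groups called 425. The test was tried on simulated data.

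Members and lists were chosen with earlier results of these data known. The rule for named genes took known signalling genes, the 10 highest rises and falls with 2 FPKM and no overlap, calls between W/Wv and EDL, and the most abundant of each family; other members were named after their values were seen. Coordinates are from the NCBI gene table of GRCm38.p6 (64 of 64 matched), exon overlaps from GENCODE. Added after the data were seen were edgeR 4.0.16 (quasi-likelihood) and DESeq2 1.42.0 on recovered reads. Other alternatives were a pseudocount of 0.1, no filter, a mean of 5 FPKM, 2 scalings, a fit of the groups compared, leaving out each library, a replicate block and plain empirical Bayes moderation. Plots used matplotlib 3.10.9.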

Additional observations from a re-analysis of the deposited data

How the results depend on the processing

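Recomputed under the alternatives, 111 counts of higher and lower genes stayed within 1.5 times the reported count and 3 did not. These were 13 genes higher in EDL with a mean FPKM of at least 5, which tests fewer genes (20 as reported), 3 genes lower in W/Wv than in EDL under the same filter (5 as reported), and 7 genes higher in W/Wv than in EDL in a fit of only these groups (4 as reported, cause not tested). Leaving out each library gave 19 to 20 higher and 27 to 29 lower in EDL, 17 to 19 higher and 26 to 29 lower in W/Wv, and 3 to 5 higher and 4 to 6 lower between W/Wv and EDL. In the same order, edgeR called 20 higher and 30 lower, 17 and 29, and 6 and 5, and DESeq2 20 and 30, 17 and 29, and 5 and 5. Quantile normalization moved the median of all genes to 0.12 in EDL and 0.11 in W/Wv and called 22 higher and 27 lower in EDL. In that order too, the replicate block called 20 higher and 28 lower, 19 and 28, and 3 and 4; same-numbered libraries did not deviate together (correlations of -0.34 to 0.08), so the numbers are not read as pairs. Under the block the calls of Dgkq (adjusted p = 0.068) and Prkacb (0.059) between W/Wv and EDL and of Dyrk1b in W/Wv (0.051) were lost, and Pik3c2g passed in W/Wv (0.047). Over the 58 genes tested and the 10 pathway genes named, 40 recomputed values lost and 18 gained the threshold, and signs turned only where no call was made: Fos in W/Wv (-0.39 to 0.16 with 1 library left out), Map3k4 in EDL (-0.08 to 0.01), Mapkapk5 in EDL (-0.03 to 0.03, -0.03 under median-ratio scaling, -0.04 with edgeR and with DESeq2), Map4k3 in EDL (-0.0 under median-ratio scaling, -0.01 with edgeR and with DESeq2), Ppp1r3f in EDL (-0.15 to 0.01) and in W/Wv (0.0 under quantile normalization), Prkcdbp in EDL (-0.14 to 0.03, and 0.12 under quantile normalization) and in W/Wv (-0.09 to 0.08, -0.0 under median-ratio scaling, -0.02 with edgeR and with DESeq2), and Sik3 in W/Wv (-0.08 to 0.02, and 0.04 under quantile normalization); the cause was not tested. The 6 genes that were not tested fell under the FPKM filter, and what a greater depth would show for them was not tested.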
